A study of Mus musculus with 8 samples.

Results

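The genes described here make, cut and bind hyaluronan, and 9 were chosen by name from the 43346 genes of the deposited count table, each name occurring in a single row. They are the synthases Has1, Has2 and Has3, the hyaluronidases Hyal1 and Hyal2, the receptors Cd44 and Hmmr, the proteoglycan gene Vcan and the hyaluronan-modifying gene Tnfaip6. RNA came from 2 mouse cell lines obtained from ATCC, grown with no added reagent to about 80% confluence, with 4 libraries per line and 8 in all. The LLC1 cells are Lewis lung carcinoma, a tumour of C57BL mouse lung. MLE12 was derived from distal lung epithelium transformed by a transgene, in which the surfactant protein C promoter drives SV40 large T antigen, a viral oncoprotein. Each line is a single line, and the labels do not say whether its libraries came from separate cultures. The p-values therefore measure the spread between these libraries, which may be technical.

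Hyaluronan is a long unbranched sugar chain that HAS enzymes build at the plasma membrane from UDP-glucuronate and UDP-N-acetylglucosamine and push out of the cell. Hyaluronidases cut it, with HYAL2 anchored at the cell surface and HYAL1 acting in lysosomes, and the fragments are broken down further by lysosomal glycosidases. Receptors such as CD44 bind it, and versican, link proteins and the heavy chains moved by TSG-6, the product of Tnfaip6, hold it in a pericellular coat. In the lung it is part of the alveolar and airway matrix and rises in injury and in tumour stroma.

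Library totals ran from 46840648 to 55285307 counts in LLC1 and from 48643667 to 76722481 in MLE12. Levels are CPM, the counts for each 1000000 of a library, on library sizes scaled by TMM, a correction for composition, and differences are log2 fold changes of LLC1 over MLE12 with their SE, positive where LLC1 was higher. Genes were called at an adjusted p under 0.05, by the quasi-likelihood test of edgeR with Benjamini-Hochberg adjustment across 18546 tested genes. The labelled lines were checked with marker genes. The lung epithelial factor gene Nkx2-1 stood at 147 ± 6.39 CPM in MLE12 against 0.664 ± 0.109 CPM in LLC1 (SD, n = 4 each), and E-cadherin, Cdh1, at 154 ± 3.04 and 0.553 ± 0.0474 CPM. Epcam was low in both, at 3.36 CPM in MLE12 and 0.0235 CPM in LLC1. Of the 8 epithelial markers 6 were higher in MLE12 and 2 in LLC1, the keratin genes Krt18 (293 ± 9.03 CPM in LLC1, 0.930 ± 0.315 in MLE12) and Krt8 (209 ± 7.31 and 106 ± 2.78 CPM). Of 7 leukocyte markers 2 were tested, Cd68 higher in LLC1 (8.37 ± 0.332 and 2.17 ± 0.235 CPM) and Csf1r in MLE12 (10.48 ± 0.788 and 12.8 ± 1.02 CPM), while Ptprc had 0 counts in LLC1 and 2 in MLE12 and Emr1 had none. Of 5 endothelial markers 2 were tested, Tek higher in MLE12 (0.0563 ± 0.0890 and 2.95 ± 0.284 CPM) and Pecam1 not called (0.247 and 0.209 CPM), and Emcn had no count. Sftpc, Epcam, Cldn3 and Tek passed the filter on low counts only through MLE12, so their calls are not independent of that filter. The part of all these markers in the hyaluronan gene values was not tested.

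Cd44, Vcan and Has1 were several-fold higher in LLC1, and Tnfaip6 and Has2 were found at low counts almost entirely in LLC1. In bulk RNA of a culture, fewer cells with a transcript and less of it per cell cannot be told apart. Hyal1 was about 1.93-fold higher in LLC1, while its neighbour Hyal2 was 2.04-fold higher in MLE12. Hmmr was slightly higher in MLE12, and Has3, the synthase with the most RNA per length in both lines, did not pass the test. Of the 9 genes, 8 had enough counts to be tested; Has2 did not. Of these 8, 5 were called higher in LLC1 and 2 in MLE12, with 1 not called, where 81.6% of all tested genes were called, 40.7% toward LLC1 and 40.9% toward MLE12. Tested against a minimum fold of 2 with edgeR's glmTreat, 4 passed toward LLC1 and 0 toward MLE12, where 33.7% of all tested genes passed, 16.7% toward LLC1 and 16.9% toward MLE12. A share of called genes near that of the whole table says little about these genes as a group, so the description rests on the single genes. The shares of the whole table are also the background to the counts given for the other gene lists. The median log2 fold change of the 8 tested members was 1.597, beside 0.02 over all tested genes. Tnfaip6 passed the filter on low counts only through LLC1, so it had to differ. It is in that median, among the 5 called toward LLC1 and among the 4 past a fold of 2. The plot of CPM by library shows no overlap between the lines for 8 of the 9 genes, the exception being Has3. Of all tested genes, 76.3% were without overlap. Among the 8 are Has2, which was not tested and so is outside that share, and Tnfaip6, which had to differ.

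**Figure D1:**
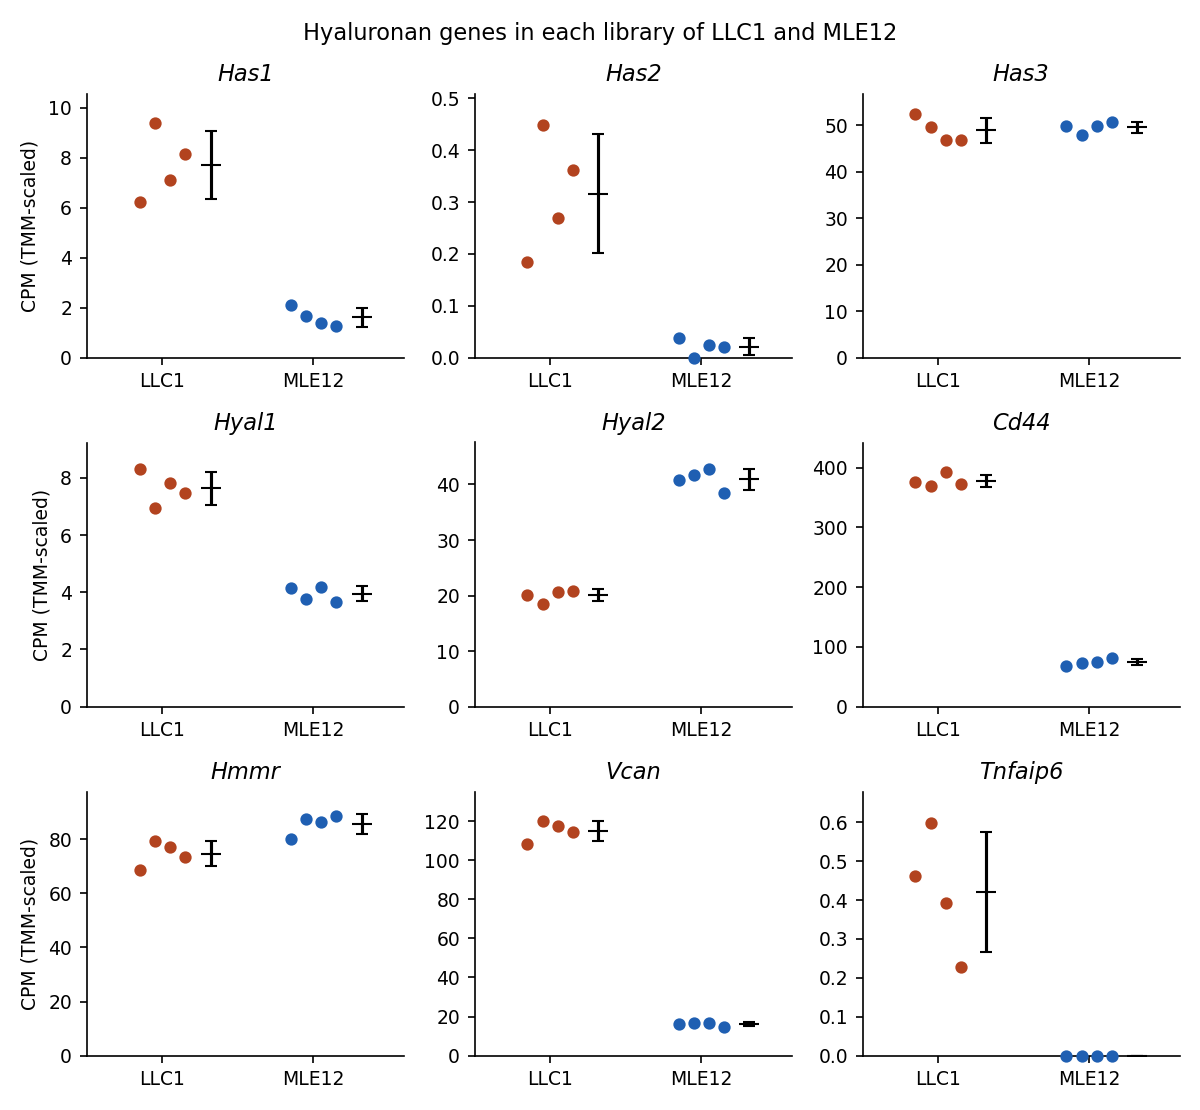
CPM (TMM-scaled, linear axes from 0) of the 9 hyaluronan genes in the 4 LLC1 libraries (red points) and the 4 MLE12 libraries (blue points), with the mean and SD as a black bar beside each group. Cd44 lies between 369.9 and 393 CPM in LLC1 and between 68.2 and 80.8 CPM in MLE12, while the Has3 points of the lines overlap.

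The synthases differ in the RNA they contributed. HAS enzymes are membrane proteins with the same reaction, of which HAS2 is the main form in the embryo and HAS3 is known for shorter chains. Has3 (ENSMUSG00000031910, chromosome 8, 106870242 to 106884566, plus strand, mm10) stood at 52.3, 49.6, 46.7 and 46.8 CPM in LLC1 replicates 1 to 4 and at 49.8, 47.8, 49.7 and 50.6 CPM in MLE12. Has3 shares 352 exon bases with Chtf8 on the opposite strand, which was slightly higher in MLE12 (-0.18 ± 0.04, adjusted p = 8.0e-04). The Has3 values of the lines overlapped, with the highest and the lowest library of all both in LLC1. The log2 fold change was -0.02 ± 0.05 (adjusted p = 0.726), and its sign turned with upper-quartile scaling (0.04). With library totals alone Has3 passed the test toward MLE12 (-0.12, adjusted p = 0.0329), a setting that moved the median of all tested genes by -0.10.

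Has1 (ENSMUSG00000003665, chromosome 17, 17843328 to 17855188, minus strand) stood at 6.22, 9.37, 7.11 and 8.14 CPM in LLC1 and at 2.12, 1.67, 1.40 and 1.26 CPM in MLE12. Every LLC1 library lay above every MLE12 library, and the log2 fold change was 2.25 ± 0.16 (adjusted p = 2.3e-10), or 4.74-fold. It was the most variable of the members that had over 100 counts in each line, with a coefficient of variation of 17.6% in LLC1 and 23.6% in MLE12, beside 5.41% and 2.33% for Has3.

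Has2 (ENSMUSG00000022367, chromosome 15, 56665627 to 56694539, minus strand) was near the limit of detection. It had 8, 24, 13 and 19 counts in LLC1 and 3, 0, 2 and 1 counts in MLE12. The 64 counts of LLC1 allow a true sum of 49.3 to 81.7, and the 6 counts of MLE12 allow 2.20 to 13.1 (exact Poisson intervals at 95%, counting error only). These intervals, and the counting intervals below, take counts as independent. They would be too narrow if the mates of a read pair were counted separately. The ratio of the pooled levels, on plain library totals, was 14.2 with a counting interval of 6.17 to 40.1. When the filter on low counts was left out, edgeR's quasi-likelihood test gave a log2 fold change of 3.74 ± 0.68 (adjusted p = 6.0e-07). Its antisense gene Has2os runs on the opposite strand and shares 182 exon bases with Has2. Has2os had 22 counts in LLC1 and 1 in MLE12, a ratio of 29.3 with a counting interval of 4.73 to 1208. The counting strand is not given in the sources used here, so reads in the shared bases cannot be told apart.

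Per length, which allows genes to be compared, Has3 was at 7.66 ± 0.414 CPM per kb in LLC1 and 7.76 ± 0.181 in MLE12, Has1 at 3.69 ± 0.650 and 0.771 ± 0.182, and Has2 at 0.0746 ± 0.0270 and 0.00497 ± 0.00380 (SD, n = 4). Has1 made up 26.5% to 36.3% of the summed synthase counts per kb in the LLC1 libraries and 7.07% to 11.5% in the MLE12 libraries, without overlap. Has3 supplied 62.9% to 73.1% in LLC1 and 88.4% to 92.9% in MLE12, and Has2 less than the smallest of these everywhere, with at most 0.857%. Summed over the synthases, with the deposited lengths, the level was 10.8 to 12.4 CPM per kb in LLC1 and 8.30 to 8.83 in MLE12. These are descriptions over 4 libraries per line with no test. With the shortest annotated transcript of each gene in place of the deposited length, the mean Has1 share fell to 8.001% in LLC1 and 1.76% in MLE12, since 1 of the Has3 models is only 1154 bases long.

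**Figure D2:**
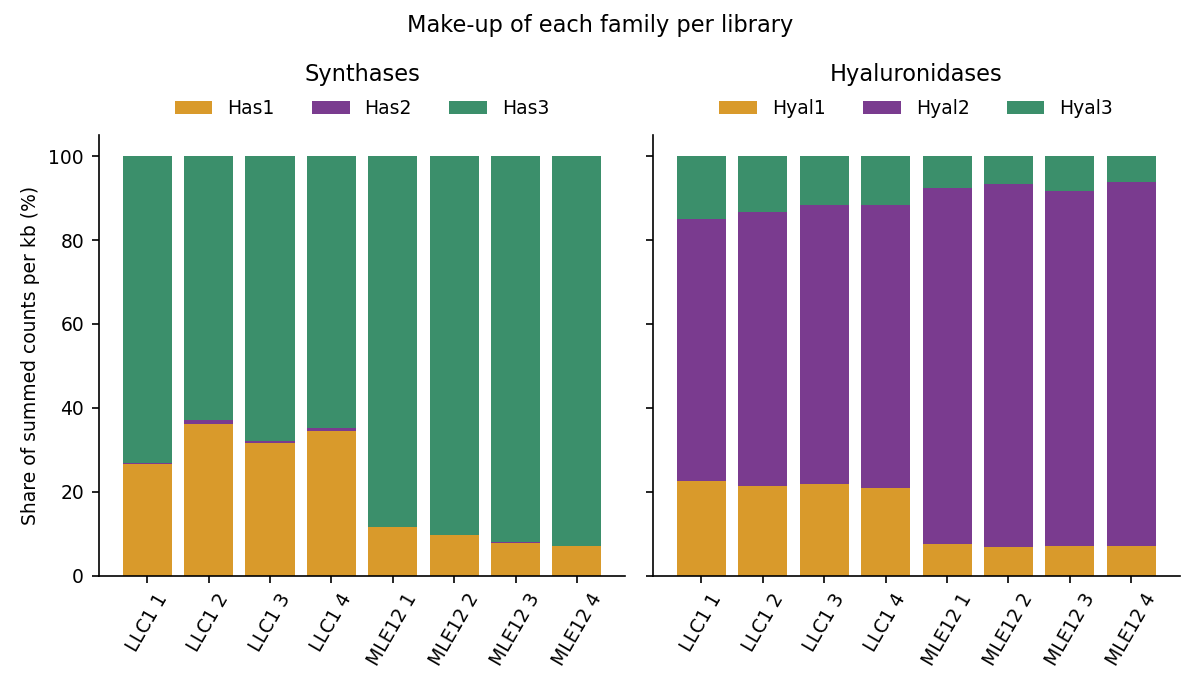
Share of each gene in the summed counts per kb (percent, stacked bars from 0 to 100) of the synthases Has1, Has2 and Has3, left, and of the hyaluronidases Hyal1, Hyal2 and Hyal3, right, in each of the 8 libraries. Has3 and Hyal2 take the most in every library, and the Has1 and Hyal1 parts are larger in all 4 LLC1 libraries than in any MLE12 library.

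The hyaluronidases moved in opposite directions although their genes lie next to each other on chromosome 9. Hyal2 (ENSMUSG00000010047, 107567945 to 107572779, plus strand), which encodes the cell surface enzyme, stood at 20.1, 18.5, 20.7 and 20.9 CPM in LLC1 and at 40.8, 41.7, 42.8 and 38.4 CPM in MLE12. Its lowest MLE12 library was well above its highest LLC1 library, and the log2 fold change was -1.03 ± 0.06 (adjusted p = 2.1e-12). Hyal1 (ENSMUSG00000010051, 107576927 to 107581710, plus strand), which encodes the lysosomal enzyme, stood at 8.32, 6.96, 7.81 and 7.46 CPM in LLC1 and at 4.17, 3.78, 4.17 and 3.66 CPM in MLE12. Here the LLC1 libraries were all higher, and the log2 fold change was 0.95 ± 0.10 (adjusted p = 4.2e-08). Neither passed the test against a minimum fold of 2 (adjusted p = 0.312 for Hyal2 and 0.985 for Hyal1, glmTreat). With library totals alone, Hyal2 did, so that 1 member passed toward MLE12.

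Per kb, Hyal2 exceeded Hyal1 2.77-fold to 3.21-fold in the LLC1 libraries and 11.2-fold to 12.7-fold in the MLE12 libraries. Hyal3, a close relative with little known activity of its own, stood at 2.33 ± 0.359 CPM in LLC1 against 2.06 ± 0.362 CPM in MLE12 and did not pass the test (0.17 ± 0.17, adjusted p = 0.354). The summed level of the hyaluronidase genes was 8.62 to 9.77 CPM per kb in LLC1 and 13.5 to 15.4 in MLE12. With the deposited lengths, the order of the sums was thus the reverse of that of the synthases, again as a description with no test. The sums were not computed with other transcript lengths, which moved the shares in both families.

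Hyal1 shares 1920 of its 3777 exon bases (50.8%) with Nat6, an acetyltransferase gene on the same strand, and 159 bases with Hyal3, by the exons of GENCODE release M21. Nat6 was higher in LLC1 by less (0.44 ± 0.09, adjusted p = 1.4e-04), with 12.6 ± 1.02 CPM in LLC1 against 9.26 ± 0.997 CPM in MLE12. The ratio of Hyal1 to Nat6 counts was 0.551 to 0.745 in LLC1 and 0.401 to 0.456 in MLE12. How the counting treated reads in shared exons is not given in the sources used here, and their part in the Hyal1 value was not tested. Hyal2 shares no exon base with another gene of the table.

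The promoters of this neighbouring pair are shown because the genes sit about a gene length apart and went opposite ways. The sequences are the 250 bases before the RefSeq start on GRCm38.p6, the assembly of mm10, at chr9:107568913-107569162 and chr9:107576700-107576949, both on the plus strand. They are written 5′ to 3′ with matches to the searched motifs in capitals.
Hyal2: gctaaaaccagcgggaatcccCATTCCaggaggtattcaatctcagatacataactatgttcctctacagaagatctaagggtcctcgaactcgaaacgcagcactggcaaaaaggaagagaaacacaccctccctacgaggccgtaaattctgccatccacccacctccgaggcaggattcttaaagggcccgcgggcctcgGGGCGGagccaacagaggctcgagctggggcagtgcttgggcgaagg
Hyal1: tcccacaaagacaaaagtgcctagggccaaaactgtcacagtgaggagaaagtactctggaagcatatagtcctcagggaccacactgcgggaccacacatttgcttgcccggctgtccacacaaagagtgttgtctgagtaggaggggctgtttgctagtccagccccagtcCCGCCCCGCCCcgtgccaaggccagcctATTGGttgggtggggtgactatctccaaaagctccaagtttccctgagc
The motifs searched on both strands were the TATA box TATAAA, the CCAAT box CCAAT, the Sp1 box GGGCGG, the AP-1 site TGANTCA, the E-box CACGTG, the TEAD site GGAATG and the CHR element TTTGAA. The RefSeq starts differ from those of the counted genes. The Hyal2 window lies inside the counted gene, which starts at 107567945, and the Hyal1 window runs past the counted start at 107576927. The Hyal1 window holds a pair of Sp1 boxes that overlap by 1 base and a CCAAT box. In the Hyal2 window there is 1 Sp1 box and a TEAD match 229 bases before the start, and it has 13 CpG dinucleotides against 5 for Hyal1. Of 32851 such windows, 32.7% hold GGGCGG, 33.8% CCAAT and 12.6% GGAATG. Such matches describe letters in a window, not binding.

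Within 50 kb of Hyal1 and Hyal2 there were 19 other genes of the table, of which 15 were tested. This stretch corresponds to a gene-dense part of human chromosome arm 3p that is often lost in lung cancer. Beside 81.6% of all tested genes called, 4 of the 15 were higher in LLC1 and 5 in MLE12, while 6 were not called. The median log2 fold change was -0.05. The tumour suppressor genes Rassf1 (48.4 ± 1.81 and 46.7 ± 2.06 CPM; 0.05 ± 0.05, adjusted p = 0.348) and Tusc2 (12.7 ± 0.605 and 13.7 ± 0.518 CPM; -0.10 ± 0.07, adjusted p = 0.179) were among the latter, values being LLC1 and then MLE12. Rassf1 passed toward LLC1 with upper-quartile scaling (0.11) and Tusc2 toward MLE12 with library totals alone (-0.20). Higher in MLE12 were the semaphorin gene Sema3b (2.95 ± 0.347 and 8.59 ± 0.747 CPM; -1.54 ± 0.11), Cyb561d2 (-1.10 ± 0.11), the GATOR1 subunit gene Nprl2 (-0.90 ± 0.07) and the gene models RP23-456B9.23 (-2.02 ± 0.24) and RP23-456B9.24 (-2.13 ± 0.24). Higher in LLC1, besides Nat6, were the G protein gene Gnai2 (403 ± 14.99 and 316 ± 9.29 CPM; 0.35 ± 0.04), RP23-456B9.18 inside it (1.35 ± 0.25) and Ifrd2 (0.10 ± 0.04). The Ifrd2 call was lost in 10 of 17 alternatives, for example with DESeq2 (0.09, adjusted p = 0.0622) and without LLC1 replicate 1 (0.11) or 4 (0.09) or MLE12 replicate 2, 3 or 4 (each 0.08). Not called were also Tmem115, Zmynd10 and Gm9917, beside Hyal3. The plot of the genes in chromosomal order shows Hyal2 and Hyal1 side by side at -1.03 and 0.95.

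**Figure D3:**
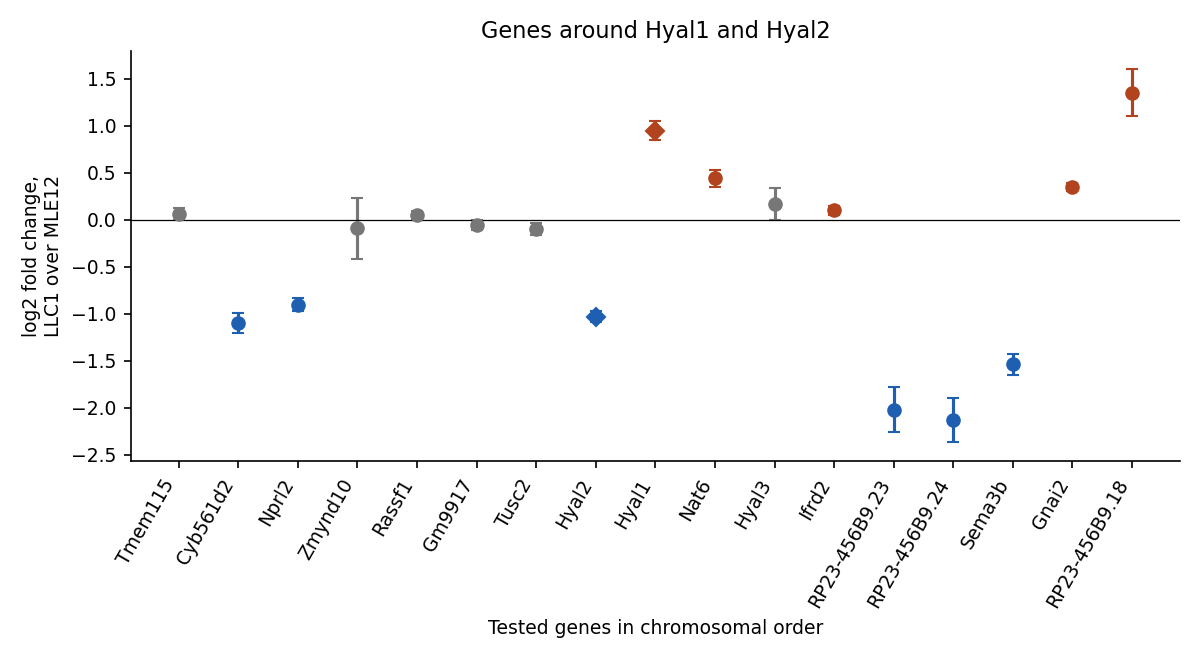
Log2 fold change (LLC1 over MLE12) with SE of the 17 tested genes around Hyal1 and Hyal2, in chromosomal order. Red is higher in LLC1, blue higher in MLE12 and grey not called, and diamonds mark Hyal2 (-1.03) and Hyal1 (0.95).

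Cd44, the main cell surface receptor of hyaluronan, was the most abundant of the genes per length in LLC1. Cd44 (ENSMUSG00000005087, chromosome 2, 102811141 to 102901665, minus strand) stood at 376, 369.9, 393 and 373 CPM in LLC1 and at 68.2, 73.3, 74.6 and 80.8 CPM in MLE12. The lines were far apart, and the log2 fold change was 2.35 ± 0.05 (adjusted p = 7.7e-19), or 5.10-fold. Per length its level was 55.8 ± 1.53 CPM per kb in LLC1 and 10.95 ± 0.763 in MLE12 (SD, n = 4), at or above 94.5% of the tested genes in LLC1 and 68.4% in MLE12. Variant exons give Cd44 many forms, with 8 protein-coding transcripts in GENCODE M21, and counts per gene do not tell them apart.

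Hmmr, which encodes RHAMM, a hyaluronan-binding protein that works mainly inside the cell at the mitotic spindle, differed little. Hmmr (ENSMUSG00000020330, chromosome 11, 40701395 to 40733422, minus strand) stood at 68.6, 79.3, 76.9 and 73.6 CPM in LLC1 and at 80.1, 87.3, 86.2 and 88.6 CPM in MLE12. All MLE12 libraries were higher, though the highest LLC1 and lowest MLE12 libraries nearly met. The log2 fold change was -0.20 ± 0.05 (adjusted p = 0.00145), or 1.15-fold. Per length its level was 13.7 ± 0.855 CPM per kb in LLC1 and 15.8 ± 0.697 in MLE12. Cd44 thus exceeded Hmmr 3.74-fold to 4.39-fold per kb in the LLC1 libraries, while in MLE12 the ratio was 0.673 to 0.731. These ratios use the deposited lengths, 6776 bases for Cd44 and 5431 for Hmmr. A shorter Cd44 form would raise them, and other lengths were not tried here.

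The promoter windows of these receptor genes are set side by side because their counts behaved differently, Cd44 changing 5.10-fold and Hmmr 1.15-fold. They lie on the minus strand at chr2:102901666-102901915 and chr11:40733438-40733687 (GRCm38.p6, RefSeq), with capitals for the same motifs.
Hmmr: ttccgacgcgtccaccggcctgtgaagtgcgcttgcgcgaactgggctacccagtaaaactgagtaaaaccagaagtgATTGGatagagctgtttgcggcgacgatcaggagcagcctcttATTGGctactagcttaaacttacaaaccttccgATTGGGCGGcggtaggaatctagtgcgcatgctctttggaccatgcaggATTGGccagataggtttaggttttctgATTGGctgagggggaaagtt
Cd44: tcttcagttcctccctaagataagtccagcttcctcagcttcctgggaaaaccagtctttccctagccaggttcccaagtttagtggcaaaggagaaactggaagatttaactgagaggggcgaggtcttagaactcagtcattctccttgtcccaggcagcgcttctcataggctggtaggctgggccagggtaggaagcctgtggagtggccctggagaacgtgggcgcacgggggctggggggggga
The Hmmr window holds 5 CCAAT boxes, all read as ATTGG on this strand, at 172, 129, 96, 47 and 20 bases before the start. The CCAAT box at 96 overlaps its single Sp1 box. Repeated CCAAT boxes are known from promoters of genes of the mitotic cycle, and 0.213% of the 32851 windows (70) hold at least 5. None of the searched motifs occurs in the Cd44 window. The CpG count is 14 for Hmmr and 5 for Cd44, beside a median of 6 over all windows.

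Spindle partners of RHAMM and proliferation markers were listed beside Hmmr. Of 9 genes, 2 were higher in LLC1 and 5 in MLE12, while 2 were not called. The median log2 fold change was -0.28 beside 0.02 over all tested genes. Higher in MLE12 were the DNA repair gene Brca1 (75.6 ± 3.03 CPM in LLC1 against 144.5 ± 10.46 CPM in MLE12; -0.93 ± 0.05), the dynein light chain gene Dynll1 (-0.58 ± 0.05) and the topoisomerase gene Top2a (-0.55 ± 0.04). The mitotic kinase gene Aurka (80.5 ± 4.70 and 59.4 ± 1.10 CPM; 0.44 ± 0.05) and Bard1, the partner of Brca1 (0.58 ± 0.05), were higher in LLC1. Tpx2, the activator of Aurora A, was named after its values were seen and did not pass (0.07 ± 0.04, adjusted p = 0.0980). It passed toward LLC1 with upper-quartile scaling (0.13), with at least 1 CPM in 4 libraries (0.12), with counts halved (0.09) and without LLC1 replicate 1 (0.10), and turned sign with library totals alone (-0.03). The summed level of the list was 1722 to 1775 CPM in the LLC1 libraries and 2171 to 2316 in the MLE12 libraries. It was lower in LLC1, like Hmmr. Its largest parts in both lines were Top2a (612 ± 7.78 and 894 ± 35.8 CPM) and Mki67 (452 ± 8.70 and 565 ± 22.2 CPM). Mki67 was named after its values were seen. The 2 genes called toward LLC1 were smaller parts of the sum. The part of the list in the Hmmr value was not tested.

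Genes for proteins that bind, cut or splice CD44 were divided. Of 9 listed, all tested, 3 were higher in LLC1 and 5 in MLE12, while 1 was not called. The median log2 fold change was -0.22. The membrane protease gene Mmp14 stood at 172 ± 2.07 CPM in LLC1 against 25.99 ± 0.740 CPM in MLE12 (2.72 ± 0.04, adjusted p = 7.4e-21). The sheddase gene Adam17 was modestly higher in LLC1 (0.64 ± 0.04), while Adam10, another sheddase, was higher in MLE12 (119 ± 7.17 and 259 ± 15.4 CPM; -1.12 ± 0.05). The cytoskeletal linker genes differed by small amounts, Ezr toward LLC1 (0.30 ± 0.05) and Rdx (-0.23 ± 0.04) toward MLE12, as was Msn, named after its values were seen (-0.22 ± 0.04). Esrp2, an epithelial splicing factor that acts on CD44 variant exons, was higher in MLE12 (4.27 ± 0.224 and 27.2 ± 0.949 CPM; -2.67 ± 0.07). Its relative Esrp1, named after its values were seen, had 4 counts in LLC1 and 422 in MLE12, a ratio of 79.3 with a counting interval of 30.7 to 292.

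Other hyaluronan receptors were divided. Of 6 listed genes 5 were tested, with 3 higher in LLC1 and 2 higher in MLE12. Each was past a fold of 2, as were 33.7% of all tested genes. The layilin gene Layn, a lectin that binds hyaluronan, stood at 23.7 ± 1.64 CPM in LLC1 against 0.769 ± 0.220 CPM in MLE12 (4.94 ± 0.13). The toll-like receptors, which respond to hyaluronan fragments, went opposite ways, Tlr4 higher in LLC1 (32.5 ± 0.955 and 2.25 ± 0.224 CPM; 3.86 ± 0.08) and Tlr2 higher in MLE12 (1.18 ± 0.2725 and 13.4 ± 0.667 CPM; -3.50 ± 0.12). Stabilin genes, chosen after their values were seen, split as well, Stab1 toward MLE12 (-1.375 ± 0.13) and Stab2 toward LLC1 (4.50 ± 0.45, from 0.93 CPM). Lyve1 had 0 counts in LLC1 and 2 in MLE12.

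Vcan, the gene of versican, a large chondroitin sulphate proteoglycan whose head binds hyaluronan, showed the largest fold among members with over 100 counts in each line. Vcan (ENSMUSG00000021614, chromosome 13, 89655312 to 89742509, minus strand) stood at 108, 119.8, 117 and 114 CPM in LLC1 and at 16.3, 16.6, 16.7 and 14.8 CPM in MLE12. The groups were widely separate, and the log2 fold change was 2.83 ± 0.05 (adjusted p = 8.4e-20), or 7.12-fold. Per length Vcan was at 7.94 ± 0.343 CPM per kb in LLC1, next to Has3, and at 1.11 ± 0.0619 in MLE12. The antisense model Gm4117 overlaps Vcan by 3050 bases without a shared exon base in GENCODE M21, and was also higher in LLC1 by less (24.9 ± 4.04 and 12.0 ± 1.10 CPM; 1.05 ± 0.10). The Vcan window is printed as that of the gene with this fold, at chr13:89742513-89742762 on the minus strand.
Vcan: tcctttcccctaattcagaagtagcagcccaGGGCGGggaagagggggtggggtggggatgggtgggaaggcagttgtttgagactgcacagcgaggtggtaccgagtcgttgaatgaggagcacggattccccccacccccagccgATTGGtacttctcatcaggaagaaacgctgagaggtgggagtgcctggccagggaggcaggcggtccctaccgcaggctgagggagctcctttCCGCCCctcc
It holds a pair of Sp1 boxes, 1 CCAAT box and 10 CpG dinucleotides.

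Tnfaip6, whose product TSG-6 moves heavy chains onto hyaluronan and cross-links it, was detected in LLC1 alone. Tnfaip6 (ENSMUSG00000053475, chromosome 2, 52038009 to 52056686, plus strand) had 20, 32, 19 and 12 counts in LLC1, or 0.462, 0.599, 0.393 and 0.228 CPM, and 0 counts in each MLE12 library. With a floor of 3 counts, or 0.0110 CPM, in place of the 0 counts of MLE12, the ratio on plain library totals was 36.8. That ratio leaves out the counting error of LLC1 and is not a lower bound. At 95% the exact Poisson intervals for Tnfaip6 ran up to 3.69 counts in MLE12 and from 66.1 to 103 in LLC1. The adjusted p was 5.1e-07 by the quasi-likelihood test. Tnfaip6 passed the filter on low counts only through LLC1, so this call is not independent of that filter. Its fitted fold change is no bound and is not given. Per length it was at 0.246 ± 0.0901 CPM per kb in LLC1, at or above 14.1% of the tested genes.

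**Figure D4:**
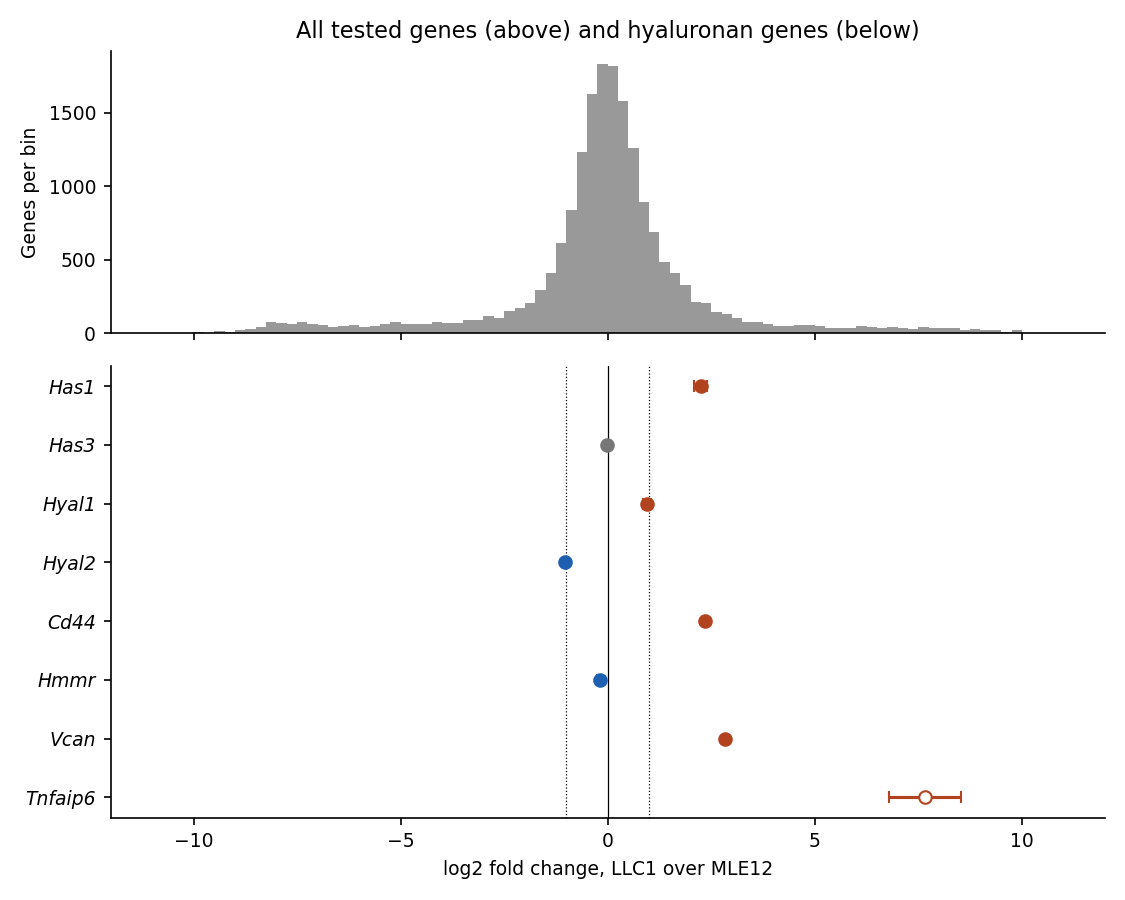
Log2 fold change (LLC1 over MLE12) of all 18546 tested genes as a histogram (grey, genes per bin of 0.25), above, and of the 8 tested hyaluronan genes with SE, below. Dotted lines mark a fold of 2 either way, red is higher in LLC1, blue higher in MLE12 and grey not called. The open circle is Tnfaip6, whose fit is no bound since MLE12 has 0 counts.

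Most other partners in the hyaluronan coat had too few counts to be tested. Of 7 hyalectan and link protein genes only 2 were tested, with 1 higher in LLC1 and 0 in MLE12, with 1 not called. The brevican gene Bcan (0.902 ± 0.158 and 0.147 ± 0.0487 CPM; 2.61 ± 0.32) was the former and Hapln4 (8.63 ± 0.681 and 8.79 ± 1.02 CPM; -0.03 ± 0.09, adjusted p = 0.799) the latter, both named after their values were seen. The link protein gene Hapln1, which neighbours Vcan, had 0 counts in LLC1 and 1 in MLE12, and the aggrecan gene Acan had 0 and 2. The list of the inter-alpha-inhibitor family and pentraxin 3, which includes partners of TSG-6, had 7 genes. Of these, 2 were tested and both were higher in LLC1. They passed the filter on low counts through LLC1 alone, so they had to differ. The heavy chain gene Itih5, named after its values were seen, had 1066 counts in LLC1, or 5.34 ± 0.871 CPM, and 3 in MLE12, a ratio of 473 with a counting interval of 161 to 2296. The other was Itih2, with 130 and 4 counts. Ambp, which encodes the bikunin chain of the inhibitor, had no count in any library, and Ptx3 had 4 and 14 counts.

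Genes of proteases that cleave versican were split, with 4 of 6 tested, 2 higher in LLC1 and 2 higher in MLE12. Adamts1 stood at 13.4 ± 1.31 CPM in LLC1 against 1.13 ± 0.0475 CPM in MLE12 (3.56 ± 0.11), and Adamts9 at 2.68 ± 0.535 and 26.1 ± 2.10 CPM (-3.28 ± 0.11). Adamts15 had 134 counts in MLE12 and 0 in LLC1, a ratio of 33.6 against a floor of 3 counts over the line, which is not a lower bound. Adamts5, not tested, had 54 counts in LLC1 and 0 in MLE12. Both were named after their values were seen.

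Genes of the enzymes that supply the sugar precursors went both ways. Of 8 genes, all tested, 2 were higher in LLC1 and 4 in MLE12, while 2 were not called. The median log2 fold change was -0.14. Ugdh, which makes UDP-glucuronate, was higher in LLC1 (142 ± 3.45 and 85.7 ± 3.09 CPM; 0.73 ± 0.04), while Ugp2, which makes the UDP-glucose it uses, was higher in MLE12 (39.9 ± 1.11 and 82.8 ± 7.85 CPM; -1.05 ± 0.06). On the hexosamine side Uap1l1 was higher in LLC1 (0.43 ± 0.05), and Gfpt1 (-0.20 ± 0.04) and Gnpnat1 (-0.28 ± 0.07) higher in MLE12. Gfpt2, a second form of the rate-limiting enzyme named after its values were seen, was low, at 0.325 ± 0.126 CPM in LLC1 against 3.001 ± 0.173 CPM in MLE12 (-3.20 ± 0.22).

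Among 10 other genes of hyaluronan degradation 6 were tested, with 1 higher in LLC1 and 4 in MLE12, while 1 was not called. The median log2 fold change was -0.41. The depolymerase gene Cemip, named after its values were seen, stood at 0.145 ± 0.0871 CPM in LLC1 against 7.73 ± 0.395 CPM in MLE12 (-5.70 ± 0.21, adjusted p = 3.9e-15). Its transmembrane relative Tmem2 was at 27.2 ± 1.83 and 57.1 ± 1.96 CPM (-1.07 ± 0.05). The lysosomal glycosidase gene Gusb was higher in MLE12 (-0.15 ± 0.04) and Hexa in LLC1 (0.31 ± 0.05). Spam1 and Hyal4 had no count in any library, and Hyal5 and Hyal6 had 2 counts each in LLC1. Of the genes in these lists, Stab2, Bcan, Itih2 and Itih5 passed the filter on low counts only through LLC1, and Gfpt2, Cemip, Adamts15 and Esrp1 only through MLE12, so their calls and the counts that hold them are not independent of that filter. Over the 8 pathway lists, 45 of 62 genes were tested, 16 were higher in LLC1 and 22 in MLE12, while 7 were not called. The median log2 fold change of the 45 was -0.08. Of all tested genes 81.6% were called, 40.7% toward LLC1 and 40.9% toward MLE12.

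**Figure D5:**
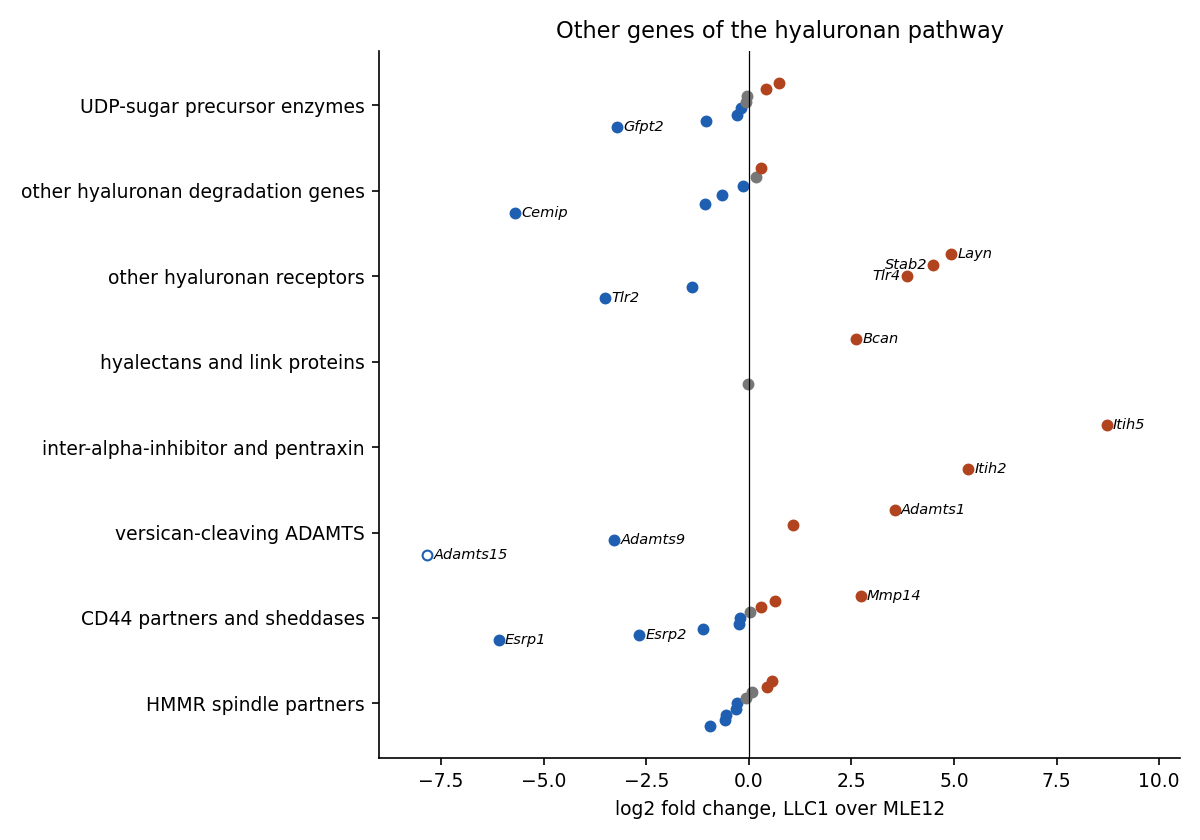
Log2 fold change (LLC1 over MLE12) of the 45 tested genes of the 8 pathway lists, 1 row per list and 1 point per gene. Red is higher in LLC1, blue higher in MLE12 and grey not called, genes beyond 2 either way are named, and the open circle is Adamts15, which had 0 counts in LLC1. Itih5 lies farthest toward LLC1.

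Markers of mesenchymal cells were listed beside Cd44, Vcan and Has1, since fibroblasts use these genes too. Of 9 markers 7 were tested, with 3 higher in LLC1 and 4 higher in MLE12. Among them Pdgfra passed the filter on low counts only through LLC1 and Col1a2 only through MLE12, so these calls are not independent of it. The summed level of the 9 markers was 5278 to 5684 CPM in the LLC1 libraries and 1257 to 1336 CPM in MLE12, carried by Vim and Col3a1 in LLC1. Dcn (2.34 ± 0.117 and 319 ± 15.8 CPM), Col1a1 and Col1a2 were higher in MLE12, and Thy1 had 0 counts in LLC1. The part of the mesenchymal markers in the hyaluronan gene values was not tested. By distance between log2 CPM profiles over the 8 libraries, the named genes nearest to Cd44 were Nudt4 (0.27) and Peak1 (0.35), to Vcan Txnip (0.34) and Smtn (0.57), and to Tnfaip6 Adra1b (0.57) and Mir199a-2 (0.65). With 2 lines such a profile holds little more than a level in each.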

How the data were processed

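Poly-A RNA of LLC1 and MLE12 was sequenced as paired-end reads, per the labels' protocols. The authors deposited raw counts per gene. CASAVA, TopHat2, featureCounts, edgeR and build mm10 are named in the submitters' processing notes; settings, strand and the treatment of shared reads are not given in the sources used here. In LLC1 replicate 1, 1392 genes had 2 counts and 1130 had 1, as happens when mates are counted separately. A fragment could then give 2 counts, the counting intervals given here would be too narrow and the floors too low. The deposited gene length, another column of the file per the file headers, equalled the union of GENCODE M21 exons for 94.7% of genes at the same position.

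Counts were analysed here with edgeR 4.0.16 in R 4.3.3: filterByExpr, TMM scaling, robust glmQLFit, glmQLFTest and glmTreat against a fold of 2, with p-values adjusted over 18546 genes. The SE is the fold change divided by the square root of F. A count of 0 over a line was set at a floor of 3 counts, and ratios against that floor are not lower bounds. Floors and intervals cover counting error only. Groups came from the cell line label. No library copied another (chi-square per degree of freedom 6.76 to 58.4). Replicate numbers are not said to pair the libraries, so the main fit had no block. On simulated counts of the same genes, 49 of 50 genes changed 1.5-fold and all 50 changed 2-fold were called, and 10 of 18346 unchanged genes. The changed genes were few, balanced in direction and above 1 CPM in MLE12, and all genes had a common dispersion. The simulation therefore does not cover lower genes or lines that differ in most genes.

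Members and lists were chosen with earlier results of these data known. Named are all members, up to 3 called genes of at least 10 CPM per list and direction, overlapping genes, tested genes within 50 kb of Hyal1 or Hyal2, and the 2 nearest profiles of the 3 called members with the largest changes. A gene that this rule names is not reported here. RefSeq promoter windows were found for 7 of the 9 genes. Alternatives were DESeq2 1.42.0, limma-voom (limma 3.58.1), other scalings and filters, halved counts, a replicate block and each library left out.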

Additional observations from a re-analysis of the deposited data

Results flagged for a closer look

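Over single genes, shares and ratios, 150 groups of 4 values were examined for a library that lay apart from the other 3. Groups of equal values, such as Tnfaip6 in MLE12, were counted but could not be flagged. In all, 13 groups had such a library, each of a single gene (Dixon's test, which chance meets in about 1 group in 20). None was a group of the 9 genes themselves. Highest in their group and apart were Hyal3 in LLC1 (2.87 CPM, next 2.23), Gusb in LLC1 (78.2), Cyb561d2 in LLC1 (6.24), Rassf1 in LLC1 (51.1), Gnpnat1 in MLE12 (44.2), Hexa in MLE12 (45.4), Tlr2 in MLE12 (14.4) and Hapln4 in MLE12 (10.3). Lowest and apart were Brca1 in LLC1 (71.0, next 76.9) and Sema3b in MLE12 (7.48, next 8.86). In the remaining 3 groups a single library held all the counts: Has2os in MLE12 (0.0129 CPM), Itih2 in MLE12 (0.0530 CPM) and Esrp1 in LLC1 (0.0827 CPM).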

How the results depend on the processing

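Over all alternatives run, the 7 called members stayed called in the same direction wherever they were tested. The log2 fold change of Hmmr ranged from -0.29 to -0.14, with adjusted p up to 0.0186. Tnfaip6 was not tested with at least 1 CPM required in 4 libraries or with counts halved. Has3 turned to 0.0396 with upper-quartile scaling and 0.0326 with at least 1 CPM in 4 libraries, and passed with library totals alone (-0.12); leaving out 1 library gave -0.0450 to 0.00988, positive without LLC1 replicate 3 or 4. With library totals alone 1 member passed a fold of 2 toward MLE12. Sign also turned without a call for Hapln4 with upper-quartile scaling (0.0317) and the CPM minimum (0.0242) and with 1 library left out (-0.0769 to 0.0501, positive without LLC1 replicate 3 or MLE12 replicate 1), for Tpx2 (-0.0267), Tmem115 (-0.0366) and Rassf1 (-0.0491) with library totals alone, for Gm9917 with upper-quartile scaling (0.00710) and for Zmynd10 with 1 library left out (-0.244 to 0.0886, positive without LLC1 replicate 1 or 4 or MLE12 replicate 2). With the longest transcript lengths the Hyal1 share was 23.97% in LLC1 and 8.06% in MLE12, against 21.7% and 7.18%. With the shortest it was 12.3% and 3.50%, that of Hyal2 84.5% and 94.96% against 65.4% and 85.6%, of Has1 8.001% and 1.76% against 32.2% and 9.02%, and of Has3 91.8% and 98.2% against 67.2% and 90.9%. The causes were not tested beyond the lengths themselves.

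Same-numbered libraries correlated at -0.06 to 0.11 in their deviations, and differently numbered ones at -0.09 to 0.07. The highest values were those of the same-numbered libraries 2 (0.11) and 3 (0.08). Correlations this weak and this few cannot settle whether the numbers pair the libraries. With a replicate block 5 members were called toward LLC1 and 2 toward MLE12, as without it, and Ifrd2 lost its call (0.10, adjusted p = 0.0672). Depth limits Has2, Has2os and Tnfaip6, whose counts are few.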
